A study of Homo sapiens with 12 samples.

Results

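AluJ elements, the oldest dimeric Alu repeats of the human genome, were followed through 12 PAR-CLIP libraries made with 4 tagged constructs. Members were every annotated element whose subfamily name starts with AluJ, counted on the strand of the element itself, with the total counts that combine uniquely mapping and multimapping reads. There were 123318 such elements with counts in at least 1 library, of 1509971 elements of 6 repeat classes, and 3649 of them had counts in all 12 libraries. AluJb was the largest subfamily with 51863 elements, followed by AluJr with 33834, AluJo with 29865 and AluJr4 with 7756. The younger groups AluS and AluY, used for comparison, had 297674 and 62142 elements.

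Anti-V5 PAR-CLIP feeds cells a photoactivatable nucleoside, crosslinks RNA to protein with ultraviolet light and sequences the RNA that comes down with the tagged protein. The cells were A375, an established human melanoma line, transiently transfected, with labelling begun 24 h later, and no change to their own ZC3H18 gene is described for any group. Clover, a fluorescent protein, was the control, Z18fl was full-length ZC3H18, Z18trunc was the truncated protein, which lacks the domain that recruits RNA surveillance, and Z18truncZnFmut was the truncated protein with aromatic residues of its zinc finger mutated. All 4 proteins carried the V5 tag, each had 3 libraries, no protein size selection was done, and nothing says that the 3 came from separate cultures, so p-values measure only the spread between these libraries, which may be technical.

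Alu elements descend from the RNA of the signal recognition particle and consist of a left and a right arm joined by an A-rich linker and closed by an A-rich tail. They carry an internal promoter for RNA polymerase III, yet most Alu sequence in RNA is carried passively inside introns and untranslated regions of polymerase II transcripts. ZC3H18 binds the nuclear cap-binding complex and connects capped RNA with the adaptor complexes NEXT and PAXT, which deliver RNA to the nuclear exosome for decay.

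Across all 123318 members the median length was 286 bases and the median divergence from the subfamily consensus was 16.2%, against 10.8% for AluS and 6.5% for AluY. The B box letters GTTCGANNC, searched on the element strand, were found in 9.25% of AluJ, 24.6% of AluS and 0.636% of AluY elements. Runs of at least 10 A were found in 30.4% of AluJ, 48.5% of AluS and 71.0% of AluY. The letters AATAAA, those of the common polyadenylation signal, were held by 29.4%, 19.0% and 13.5%. AluJ thus had the fewest long A runs and the most AATAAA of the 3 groups, and a match is a description of letters, not of a working site. By position, 49.0% of AluJ elements lay in introns of a gene on their strand, 2.76% had at least 50% of their length in such a gene's exons, 22.3% were antisense to a gene and 25.97% lay between genes.

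Aligned fragments ranged from 16683132 to 25686948 per library, with Clover the shallowest, and AluJ elements with counts numbered 19155 to 22142 per Clover library against 31609 to 64653 in the others. Z18truncZnFmut replicate 3 stood apart from the other 11 libraries. It had counts on 64653 AluJ elements, against 31609 and 32398 in its 2 companion libraries, and only 56.7% of its AluJ counts were on the element strand, against 63.2% to 65.9% elsewhere. The main values of that construct are therefore also given without it. The tables hold repeats and no genes, so the cell type could be read only through repeats inside marker genes. In the list used for the melanocyte lineage, AXL had 34.0 to 62.6 CPM (counts per 1000000 aligned fragments of the library) over 43 repeats. CSPG4 had 0.715 to 2.27 over 12 repeats, MITF 0.300 to 2.21 over 24 and SOX10 0.413 to 1.27 over 6. PMEL, MLANA, TYR, TYRP1 and DCT, with 1 to 5 repeats each, stayed at or below 0.289, and S100B had 0 repeats with counts. Repeats in genes of keratinocytes, fibroblasts, immune cells and hepatocytes stayed at or below 0.376. PMEL, MLANA, TYR, TYRP1 and DCT were thus no higher than these, and the repeats do not settle the lineage.

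The share of AluJ in all element counts was lower with each construct than with Clover, while AluJ counts relative to aligned fragments were higher. In Clover libraries AluJ made up 10.7%, 10.9% and 10.5% of element counts. Z18fl libraries had shares of 9.96%, 9.40% and 9.13%, Z18trunc libraries 9.25%, 9.23% and 9.54%, and Z18truncZnFmut libraries 10.1%, 10.4% and 7.40%. Every construct library therefore lay below every Clover library. Relative to aligned fragments the order turned round. AluJ gave 4480, 4226 and 4014 CPM in Clover. Z18fl libraries gave 5158, 4638 and 5027, Z18trunc libraries 5137, 5256 and 5551, and Z18truncZnFmut libraries 5358, 5346 and 6675. Again the groups did not overlap with Clover. For each of these 6 contrasts with Clover the two-sided exact permutation test gave p = 0.1, the smallest that 3 libraries against 3 allow, and 0.214 after Benjamini-Hochberg adjustment over the 45 tests of this family. Without Z18truncZnFmut replicate 3 its mean share lay 0.50 percentage points below Clover instead of 1.44.

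**Figure D1:**
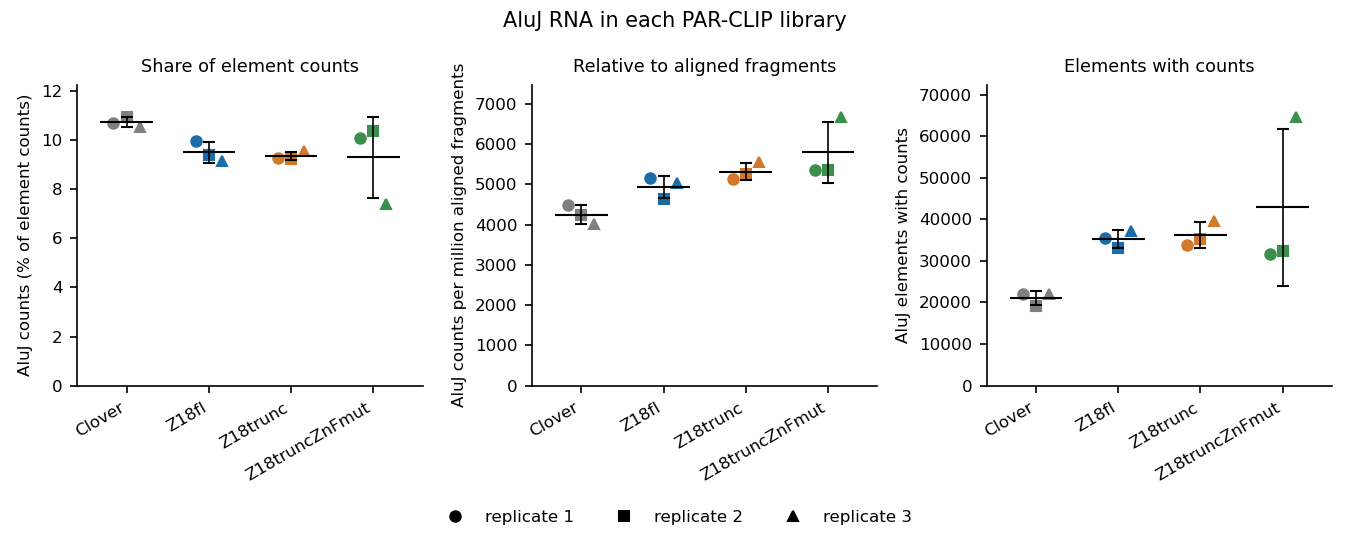
AluJ RNA in the 12 libraries, by construct, as percent of element counts (left), CPM of AluJ (counts per 1000000 aligned fragments, middle) and number of AluJ elements with counts (right). Points are libraries, with a marker shape for each replicate number, horizontal bars are means and error bars are SD (n = 3). Clover is highest in the left panel and lowest in the others, and Z18truncZnFmut replicate 3 has 64653 elements.

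Within the Alu family AluJ kept nearly the same weight. AluJ made up 24.97% ± 0.161 (SD, n = 3) of AluJ, AluS and AluY counts together in Clover and 25.7% ± 0.292 in Z18fl, without overlap with Clover (exact permutation p = 0.1, adjusted 0.214). The share was 25.3% ± 0.455 in Z18trunc and 25.3% ± 0.309 in Z18truncZnFmut, both overlapping Clover. Mean divergence weighted by counts was 15.91% in Clover and 15.97% in Z18fl, groups that differed by 0.0651 percentage points. Z18trunc lay 0.0901 points above Clover and Z18truncZnFmut 0.131, or 0.0652 without its replicate 3. In these 3 contrasts the groups did not overlap (exact permutation p = 0.1, adjusted 0.214). Uniquely mapping reads made up 71.5% ± 3.16 of AluJ counts in Clover, against 76.6% ± 1.48 with Z18fl, 73.9% ± 1.98 with Z18trunc and 71.2% ± 1.40 with Z18truncZnFmut, the rest being assigned to elements by estimation.

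Summed by subfamily, AluJb, AluJo and AluJr fell in Z18fl libraries against Clover after TMM scaling (edgeR's correction of library size for composition), and with library sizes set to aligned fragments the same sums were higher instead. AluJb had 2064, 1947 and 1838 CPM in Clover and 2257, 2026 and 2193 in Z18fl, 2 overlapping groups. On the TMM scale its log2 fold change was -0.32 (SE 0.060, edgeR adjusted p = 0.000414), and on aligned fragments it was 0.15 (adjusted p = 0.0766). AluJo changed by -0.23 (adjusted p = 0.00505) and turned to 0.24 on aligned fragments. AluJr changed by -0.17 (adjusted p = 0.0384) and turned to 0.30, and AluJr4, at -0.05 (adjusted p = 0.584), turned to 0.42. Thus 0 of 4 AluJ subfamilies were called higher and 3 lower, where 20.1% of 914 tested subfamilies were called higher and 20.1% lower, and on aligned fragments 3 were called higher and 0 lower. Of all 914 subfamilies 493 were higher and 38 lower on aligned fragments, and their median log2 fold change moved from -0.013 to 0.46. The call at AluJr was lost without Clover replicate 2 or 3 or Z18fl replicate 2 or 3, at log2 fold changes of -0.15, -0.17, -0.13 and -0.17. With all 12 libraries in 1 fit none of the 4 was called. The younger groups had 16 of 17 AluS and 9 of 23 AluY subfamilies called lower and 0 and 1 higher on the TMM scale, which turned to 8 and 11 called higher and 0 lower on aligned fragments. The 4 monomer subfamilies, relatives that predate the dimer, had 0 calls by edgeR on the TMM scale and 4 higher on aligned fragments.

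In the other 4 comparisons no AluJ subfamily sum was called on the TMM scale. For Z18trunc against Clover the 4 log2 fold changes ran from -0.19 to 0.07, with 15.7% of subfamilies called higher and 11% lower, and on aligned fragments all 4 were called higher. That scaling called 417 of all 924 subfamilies higher and 9 lower, at a median of 0.48. For Z18truncZnFmut against Clover the 4 AluJ values ran from -0.33 to -0.13, with 1.3% of subfamilies called higher and 0% lower, and on aligned fragments from 0.42 to 0.68, with 0 called and 4 at an unadjusted p under 0.05. Aligned fragments called 31 of all 920 subfamilies higher and 0 lower there, at a median of 1.04. The values below 0 on the TMM scale rested on Z18truncZnFmut replicate 3. Without it AluJb and AluJo were both at -0.017, AluJr at 0.033 and AluJr4 at 0.13, 0 of the 4 were called by edgeR and 0 had an unadjusted p under 0.05, and of 894 subfamilies tested 98 were called higher and 52 lower. For Z18trunc against Z18fl they ran from 0.023 to 0.08 (1.48% of subfamilies called higher, 2.22% lower), and for Z18truncZnFmut against Z18trunc from -0.15 to -0.09 (0% called in either direction), which turned to 0.075 to 0.19 without Z18truncZnFmut replicate 3. In these 4 comparisons 0 AluJ subfamilies had an unadjusted p under 0.05 by edgeR on the TMM scale, and DESeq2 called 0 as well.

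AluJ counts moved in different directions according to where the element sat in its gene. Counts in exons that touch an untranslated region (UTR) were lower with all constructs, and counts in introns and in other exons were higher, relative to aligned fragments. An element touches a UTR here where it overlaps an annotated UTR of any gene on either strand. Such exonic elements are called UTR elements, or loci in UTR exons, below. The 1513 AluJ elements that lie in exons and touch a UTR gave 1154, 1135 and 1130 CPM in Clover. The same elements gave 780, 731 and 759 with Z18fl, 945, 922 and 881 with Z18trunc, and 1104, 930 and 828 with Z18truncZnFmut. Every construct library was below every Clover library, and Z18fl was lowest. The AluJb in IRAK1, described below, alone had 217 CPM in Clover replicate 2 and 178 in Z18truncZnFmut replicate 1. Without it Z18truncZnFmut replicate 1 would lie above Clover replicate 2, so the separation of that construct from Clover rests on this element. The 1884 AluJ elements in other exons, which touch no annotated UTR, gave 210, 215 and 200 in Clover, against 350, 329 and 339 with Z18fl, 287, 290 and 299 with Z18trunc, and 288, 283 and 254 with Z18truncZnFmut. Here every construct library was above every Clover library. The 60379 intronic elements gave 2149, 2006 and 1862 in Clover, against 3074, 2708 and 2978 with Z18fl, 2876, 3000 and 3140 with Z18trunc, and 2835, 3078 and 3296 with Z18truncZnFmut, again all above Clover. In RNA recovered with a tagged protein, a change in the number of transcripts and a change in how much of each was recovered cannot be told apart. CPM are relative, so a change in the other RNA of a library cannot be told apart from these either.

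**Figure D2:**
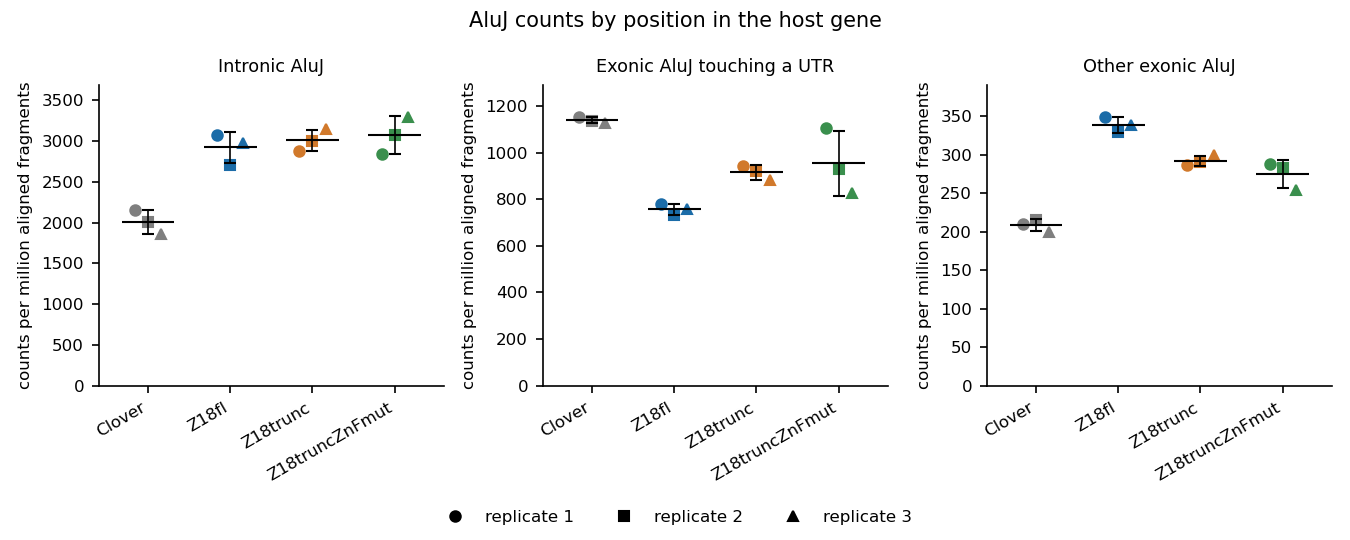
CPM of AluJ in introns (left), in exons touching a UTR (middle) and in other exons (right), by construct. Points are libraries, bars are means and error bars are SD (n = 3). Clover is lowest in the outer panels, at a mean of 2006 in introns and 208 in other exons, and highest in the middle, at 1139.

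As shares, introns held 47.3% ± 0.801 (SD, n = 3) of AluJ counts in Clover, against 59.1% ± 0.628 with Z18fl, 56.5% ± 0.539 with Z18trunc and 53.3% ± 4.11 with Z18truncZnFmut. Exons of all kinds held 31.8% ± 1.34, 22.2% ± 0.574, 22.8% ± 1.39 and 21.6% ± 4.97 in the same order. None of the construct libraries overlapped with Clover in either share (exact permutation p = 0.1, adjusted 0.214, for each of the 6). Z18fl and Z18trunc did not overlap in the intron share either, with the same p. Elements antisense to a gene held 8.97% to 9.28% of AluJ counts in Clover libraries, 7.75% to 8.09% with Z18fl, 8.39% to 9.62% with Z18trunc, and 8.95%, 8.33% and 15.7% with Z18truncZnFmut. Those between genes held 11.4% to 12.3%, 10.7% to 10.8%, 11.4% to 12.6%, and 12.2%, 11.4% and 18.7% in the same order. In both classes the high value of Z18truncZnFmut was that of replicate 3, and its other 2 libraries lay within or below the range of Clover. Leaving out the single AluJ element with the most counts, the one in IRAK1, left the Z18fl minus Clover difference at 10.5 percentage points for introns, against 11.8 with it, and at -7.62 points for exons, against -9.64. Without Z18truncZnFmut replicate 3 the intron share of that construct lay 7.97 points above Clover instead of 6.02, and its exon share differed from Clover by -7.51 points instead of -10.2.

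At single elements, 1060 AluJ loci were tested for Z18fl against Clover, and 173 were called higher (16.3%) and 341 lower (32.2%), where 28.3% of all 12098 loci tested were called higher and 24.6% lower. The median log2 fold change was -0.30, against 0.0084 over all loci, and with library sizes from aligned fragments the split turned to 240 higher and 218 lower and the AluJ median to 0.065, when the median of all loci moved to 0.37. Of all 12098 loci 4349 were higher and 1782 lower with these library sizes, so the AluJ median lay below that of all loci on both scales. The sign at loci in UTR exons did not depend on the choice of scale. Of 313 tested AluJ loci in UTR exons 8 were higher and 183 lower (2.56% and 58.5%, median -0.93), and on aligned fragments 15 were higher and 116 lower (median -0.56). Repeats of all kinds in UTR exons moved in much the same way, with 5.12% of 2615 loci higher and 52.6% lower (median -0.83). Of 115 AluJ loci in other exons 35 were higher and 17 lower (30.4% and 14.8%, median 0.54), and 47 and 11 on aligned fragments, against 28.8% and 15.1% of all 969 loci in other exons (median 0.30). Of 459 intronic AluJ loci 108 were higher and 77 lower (23.5% and 16.8%, median 0.12), and 152 and 43 on aligned fragments. Over all 5324 intronic loci 41.8% were higher and 12.8% lower (median 0.64), a larger share higher than among AluJ. Leaving out a library also changed which loci passed the filter. Without Clover replicate 1 or 2 the AluJ loci called higher numbered 263 of 1940 tested and 275 of 1841. Over all loci they numbered 4652 of 20245 and 4591 of 19669. Among intronic AluJ loci they numbered 168 of 955 and 180 of 899. Without Z18fl replicate 2 or 3 the intronic AluJ loci called lower numbered 50 of 360 and 45 of 370. Without Z18fl replicate 1 the intronic median was -0.015. Intronic LINE elements, by contrast, had a median of 1.40 in the same fit, and intronic AluS a median of 0.010.

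For Z18trunc against Clover, 85 of 1147 tested AluJ loci were higher and 198 lower, where 22.5% of 13204 loci were called higher and 13.4% lower, and on aligned fragments the split turned to 142 higher and 63 lower. That scaling called 3701 of all 13204 loci higher and 504 lower. The AluJ median turned from -0.30 to 0.047, and the median of all loci from -0.033 to 0.31. UTR exons again held most of the lower AluJ calls, 112 of 349 tested with 4 higher (32.1% and 1.15%, median -0.60), or 37 lower and 7 higher on aligned fragments. Among all 2820 loci in UTR exons 31.4% were lower and 1.67% higher (median -0.57), shares close to those of AluJ. Intronic AluJ loci had 52 higher and 38 lower of 475 (10.9% and 8%, median 0.059), against 35.4% and 6.01% of all 5792 intronic loci (median 0.47). Other exons had 15 and 11 of 101 (14.9% and 10.9%, median 0.08), against 11.6% and 11.8% of 904. These counts moved with single libraries, and so did the number of loci tested. Loci called higher numbered 134 of 2171 without Clover replicate 1 and 133 of 2024 without Clover replicate 2. They numbered 55 of 872 without Z18trunc replicate 2 and 44 of 861 without Z18trunc replicate 3. Over all loci the higher calls were 3912 of 22491, 3946 of 21680, 2189 of 10236 and 2484 of 10608 in the same order. AluJ loci called lower numbered 99 of 872, 95 of 872 and 127 of 861 without Z18trunc replicates 1, 2 and 3. Over all loci the lower calls were 924 of 10186, 913 of 10236 and 1152 of 10608 in the same order. The lower AluJ calls in UTR exons numbered 61 of 301, 58 of 303 and 79 of 302, with the UTR median between -0.61 and -0.52 whichever library was left out. Intronic loci called higher numbered 96 of 1093, 87 of 1009 and 85 of 1141 without Clover replicates 1, 2 and 3. They numbered 34 of 325 and 25 of 317 without Z18trunc replicates 1 and 3. Those called lower numbered 16 of 325, 16 of 325 and 24 of 317 without Z18trunc replicates 1, 2 and 3. Without Z18trunc replicate 3 the medians of intronic loci and of other exons turned to -0.031 and -0.067.

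For Z18truncZnFmut against Clover, 8 of 928 tested AluJ loci were higher and 56 lower, where 12.3% of 10152 loci were called higher and 4.83% lower, and on aligned fragments the split turned to 21 higher and 9 lower. That scaling called 1488 of all 10152 loci higher and 116 lower, with a median of 0.15 over all loci and -0.0042 over AluJ. Of 328 AluJ loci in UTR exons 0 were higher and 38 lower (11.6%), with a median of -0.41, and on aligned fragments 1 was higher and 2 lower, with a median of -0.21. Among all 2575 loci in UTR exons 0.466% were higher and 12.5% lower, with a median of -0.43, close to the AluJ values. At an unadjusted p under 0.05 the counts over all AluJ loci were 35 higher and 137 lower, and DESeq2 called 4 and 39. Intronic AluJ loci had 2 higher and 8 lower of 343 (0.583% and 2.33%), with a median of -0.013 on the TMM scale and 0.18 on aligned fragments, against 21.3% higher and 1.76% lower of all 3970 intronic loci (median 0.22). Without Z18truncZnFmut replicate 3 the AluJ calls were 7 higher and 25 lower of 897 tested, against 1025 and 276 of 9894 over all loci. Of 312 AluJ loci in UTR exons 19 were then lower, and the intronic median was 0.048. Without Clover replicate 2 there were 14 higher and 33 lower of 1515, and without Clover replicate 3 there were 37 lower of 1580. Without Z18truncZnFmut replicate 2 there were 5 higher and 27 lower of 803. Over all loci, the calls without Clover replicate 2 were 1351 higher and 345 lower of 15822. They were 308 lower of 16026 without Clover replicate 3, and 1065 higher and 258 lower of 9100 without Z18truncZnFmut replicate 2. The lower AluJ calls in UTR exons were 22 of 386 without Clover replicate 2, 25 of 389 without Clover replicate 3 and 17 of 301 without Z18truncZnFmut replicate 2.

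**Figure D3:**
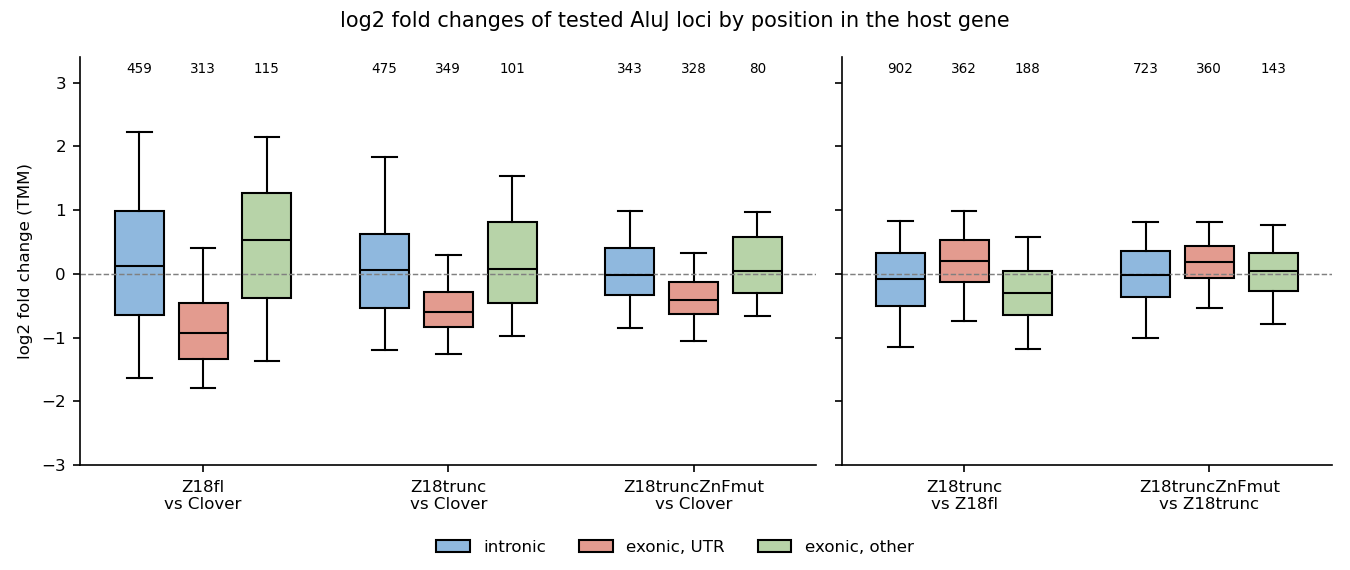
log2 fold changes (TMM scale) of tested AluJ loci in introns, in exons touching a UTR and in other exons, for the 5 comparisons. Boxes span the quartiles with the median as a line, whiskers the 5th to 95th percentiles, and the number above each box is the loci tested. UTR boxes lie below 0 in the 3 comparisons with Clover, with medians of -0.93, -0.60 and -0.41, and the boxes between constructs lie around 0.

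Between Z18trunc and Z18fl, 33 of 1737 tested AluJ loci were higher and 45 lower in Z18trunc, where 2.62% of 19413 loci were called higher and 3.13% lower, and on aligned fragments 35 were higher and 26 lower. Over all loci 504 were higher and 385 lower on aligned fragments. AluJ loci in UTR exons leaned up and those in other exons leaned down. Of 362 in UTR exons 18 were higher and 5 lower (median 0.21, or 0.28 on aligned fragments), of 188 in other exons 0 were higher and 8 lower (median -0.30), and of 902 in introns 7 were higher and 27 lower (median -0.078, or -0.00020 on aligned fragments). Over all repeats the medians were 0.13 in UTR exons (4.38% of 3015 higher, 2.62% lower), -0.30 in other exons (0.341% of 1468 higher, 6.68% lower) and -0.026 in introns (1.96% of 9827 higher, 2.93% lower). Few calls were robust to single libraries, though more loci were then tested. AluJ loci tested numbered 2084, 2176 and 2069 without Z18fl replicates 1, 2 and 3. They numbered 2195, 2090 and 2079 without Z18trunc replicates 1, 2 and 3. Leaving out Z18fl replicates 1, 2 and 3 in turn gave 9, 12 and 20 higher calls, leaving out Z18trunc replicates 1 and 2 gave 7 and 14, and the lower calls were 20 and 14 without Z18fl replicates 1 and 2 and 14 and 19 without Z18trunc replicates 1 and 2. Over all loci, of 22231 to 23327 tested, the higher calls were 147, 149, 477, 159 and 234 in the same order. The lower calls over all loci were 267, 213, 224 and 270. The higher AluJ calls in UTR exons were 3, 8 and 8 without Z18fl replicates 1, 2 and 3 and 4 and 6 without Z18trunc replicates 1 and 2. The lower calls in introns fell to 10 and 6 without Z18fl replicates 1 and 2 and to 7 and 11 without Z18trunc replicates 1 and 2, and those in other exons to 3, 4, 2 and 4 in the same order, with 12 in other exons without Z18trunc replicate 3.

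Between Z18truncZnFmut and Z18trunc, 3 of 1497 tested AluJ loci were higher and 1 lower, where 0.368% of 16833 loci were called higher and 0.351% lower. On aligned fragments 1 was higher and 2 lower, and the AluJ median turned from 0.08 to -0.09. The median of all loci turned from 0.013 to -0.16, with 30 called higher and 184 lower. At an unadjusted p under 0.05, 100 AluJ loci were higher and 56 lower, and DESeq2 called 5 AluJ loci higher and 1 lower. No AluJ locus in other exons was called in either direction among 143 tested, nor by the fit on aligned fragments. Leaving out a library raised the number of AluJ loci tested to between 1897 and 2097. Higher calls then numbered 1, 0 and 0 without Z18trunc replicates 1, 2 and 3. Lower calls numbered 0 without Z18trunc replicate 1 and 3, 2 and 3 without Z18truncZnFmut replicates 1, 2 and 3. Over all loci, of 20064 to 21933 tested, the higher calls were 12, 15 and 14 and the lower calls 4, 64, 40 and 57 in the same orders.

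AluJ counts were spread over more elements with the constructs. The 10 AluJ elements with the most counts held 10.2% of AluJ counts in Clover and 5.17%, 5.54% and 5.62% in Z18fl, Z18trunc and Z18truncZnFmut, and 50% of AluJ counts were reached with 2068, 4110, 4274 and 5763 elements. Without Z18truncZnFmut replicate 3 that construct had 6.69% and 3767 elements. In single libraries the 10 held 9.87% to 10.6% in Clover and 3.92% to 7.04% in the constructs, and 50% was reached with 1630 to 1915 elements in Clover and 2905 to 8767 in the constructs, the highest in Z18truncZnFmut replicate 3. Deeper libraries also list more elements, and the part of depth in this was not tested. The AluJ with the most counts over all libraries was a UTR-touching AluJb in an exon of IRAK1, a kinase of interleukin-1 receptor signalling, at chrX:154011092-154011389 (minus strand). It had 215, 217 and 195 CPM in Clover, against 93.9, 97.8 and 89.0 with Z18fl, 126, 122 and 129 with Z18trunc, and 178, 169 and 115 with Z18truncZnFmut. All constructs lay below Clover, Z18fl lowest. Its log2 fold changes against Clover were -1.52 (adjusted p = 8.77e-09), -1.08 (adjusted p = 6.77e-08) and -0.64 (adjusted p = 0.00328), and it alone held 4.92% of AluJ counts in Clover and 1.90% in Z18fl. The second was an AluJo in an intron of PRPF8, a core protein of the spliceosome, at chr17:1681084-1681377 (minus strand), which fell by 0.83, 0.85 and 0.68 on the log2 scale in the 3 comparisons with Clover. Against the intronic trend, its CPM were 47.9, 48.99 and 49.96 in Clover and between 31.5 and 39.7 in the constructs. The third was a UTR-touching AluJr in an exon of CAVIN1, which coats caveolae, at chr17:42403074-42403228 (minus strand). Its log2 fold changes were -0.61, -0.76 and -0.56 on the TMM scale. It had 36.3, 42.3 and 35.99 CPM in Clover, against 34.1, 30.3 and 32.1 with Z18fl, 30.2, 25.5 and 30.3 with Z18trunc, and 40.1, 28.5 and 21.8 with Z18truncZnFmut, so in CPM Z18truncZnFmut overlapped Clover and the differences were smaller than on the TMM scale.

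Among the AluJ loci that rose most in Z18fl, an AluJb in an exon of SNAPC4, a subunit of the complex that binds snRNA gene promoters, had 4, 8 and 3 counts in Clover and 90, 70 and 84 in Z18fl. Z18trunc had 29, 46 and 46 and Z18truncZnFmut 34, 15 and 17 at this element (chr9:136393927-136394213, minus strand). Its log2 fold change was 3.16 (SE 0.35, adjusted p = 1.22e-06) for Z18fl and 2.17 (adjusted p = 0.000609) for Z18trunc against Clover, and Z18trunc lay below Z18fl by -1.08 (adjusted p = 0.00582). The groups Clover, Z18trunc and Z18fl did not overlap in counts. An AluJo on the strand opposite RTEL1-TNFRSF6B, a readthrough locus of a telomere helicase, had 4, 2 and 14 counts in Clover and 76, 76 and 93 in Z18fl (log2 fold change 2.75, adjusted p = 1.57e-05). An intronic AluJo of CTTN, which encodes the actin-binding protein cortactin, had 4, 3 and 13 against 57, 79 and 91 (2.64, adjusted p = 2.14e-05). An AluJb between genes on chromosome 2 had 6, 1 and 1 against 27, 28 and 45 (2.74, adjusted p = 0.000336), and rose about as far in Z18trunc, at 23, 44 and 31 counts (2.75, adjusted p = 0.000717). An AluJr on chromosome 21, antisense to ENSG00000278996, had 2, 0 and 3 against 34, 20 and 47 counts (3.403, adjusted p = 0.000134), but only 21.4% of the reads that align there were assigned to it, so its counts are uncertain.

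The AluJ loci that fell most in Z18fl included a UTR element in an exon of FEM1A, an adaptor of a ubiquitin ligase, at chr19:4797652-4797948 (plus strand). It had 110, 113 and 90 counts in Clover and 33, 31 and 50 in Z18fl. With Z18trunc it had 114, 92 and 80 counts, and with Z18truncZnFmut 158, 71 and 87. The log2 fold change was -2.31 (SE 0.20, adjusted p = 8.27e-08) for Z18fl and -0.96 (adjusted p = 0.000319) for Z18trunc against Clover. An AluJr antisense to RAB11B-AS1 had 91, 109 and 78 against 25, 37 and 35 (-2.36, adjusted p = 2.24e-07), and an intronic AluJb of RNF111, a ubiquitin ligase of TGF-beta signalling, 34, 36 and 21 against 19, 7 and 5 (-2.37, adjusted p = 0.00018). An AluJb between genes on chromosome 19 had 38, 31 and 36 against 15, 11 and 16 (-2.16, adjusted p = 1.44e-05), at -1.77 in Z18trunc and -1.09 in Z18truncZnFmut. Both the FEM1A and the RAB11B-AS1 element were also called lower in Z18truncZnFmut, by -0.66 (adjusted p = 0.0334) and -0.75 (adjusted p = 0.0357). Another AluJb between genes, at chr11:70209694-70209997 (plus strand), fell by 2.07 on the log2 scale. The largest fall, -3.17, was at a UTR-touching AluJr in an exon of SULT1A3, a sulfotransferase with a near-identical copy. Only 26.5% of aligned reads were assigned to this element, and Z18trunc replicate 1 had 94 counts against 5 and 10 in replicates 2 and 3. The fall is therefore uncertain.

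Beyond those already given, the loci that rose most in Z18trunc were intronic. They were an AluJo of ENSG00000288710 (4, 2 and 3 counts in Clover against 37, 39 and 27, log2 fold change 2.65), an AluJb of SPAG7 (5, 3 and 3 against 30, 40 and 33, 2.37), an AluJr of KPNA4, an importin alpha (6, 6 and 2 against 41, 46 and 31, 2.22) and an AluJb of CHID1 (1, 7 and 5 against 37, 17 and 44, 2.08). ENSG00000288710 overlaps a gene on the other strand. Falling UTR elements were an AluJr of PRKAR2A, a regulatory subunit of protein kinase A, with 43, 54 and 60 counts in Clover against 24, 41 and 36 (-1.46, adjusted p = 0.000197), and an AluJb of the interleukin-6 receptor gene IL6R with 28, 31 and 40 against 26, 15 and 24 (-1.42, adjusted p = 0.00118). Adjusted by library size, none of these groups overlapped.

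In Z18truncZnFmut 4 AluJ loci rose by the same rule. Among them, an AluJo in NEAT1, the RNA scaffold of paraspeckles, had 33, 33 and 24 counts in Clover against 83, 70 and 105 with Z18fl, 72, 102 and 81 with Z18trunc and 75, 85 and 113 with Z18truncZnFmut. It rose by 0.66, 0.67 and 0.97 with the 3 constructs, the last lost without Clover replicate 3 or Z18truncZnFmut replicate 3. An AluJb on the unplaced contig Un_GL000220v1, which carries ribosomal DNA, had 17, 10 and 13 against 57, 67 and 84 (1.75), and an intronic AluJb of CCDC200 0, 9 and 0 against 60, 47 and 19 (3.12, adjusted p = 0.00186, not called by DESeq2), where only 34.8% of aligned reads were assigned.

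The loci that fell most in Z18truncZnFmut were mostly UTR elements with small changes. They lay in KDM4B, a histone demethylase (-1.11), APOBEC3D, a cytidine deaminase (-1.10), PRKAR2A (-1.05) and MRM2, a mitochondrial rRNA methyltransferase (-1.004), with an intronic AluJb of PRMT5, an arginine methyltransferase (-1.06). Adjusted p-values ran from 0.00435 at PRKAR2A to 0.0309 at KDM4B. The calls at KDM4B, APOBEC3D and the element between genes on chromosome 19 were each lost without Clover replicate 1 or Z18truncZnFmut replicate 2 or 3, KDM4B and APOBEC3D also without Clover replicate 2, KDM4B and the chromosome 19 element without Clover replicate 3, and APOBEC3D without Z18truncZnFmut replicate 1. The call at MRM2 was lost without Clover replicate 1 or Z18truncZnFmut replicate 3, and that at PRMT5 without Z18truncZnFmut replicate 1. On aligned fragments KDM4B, APOBEC3D, MRM2 and the chromosome 19 element kept their sign and were not called. KDM4B had 33, 33 and 29 counts in Clover and 35, 23 and 11 in Z18truncZnFmut, so the raw counts overlap and only the counts relative to library size do not.

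**Figure D4:**
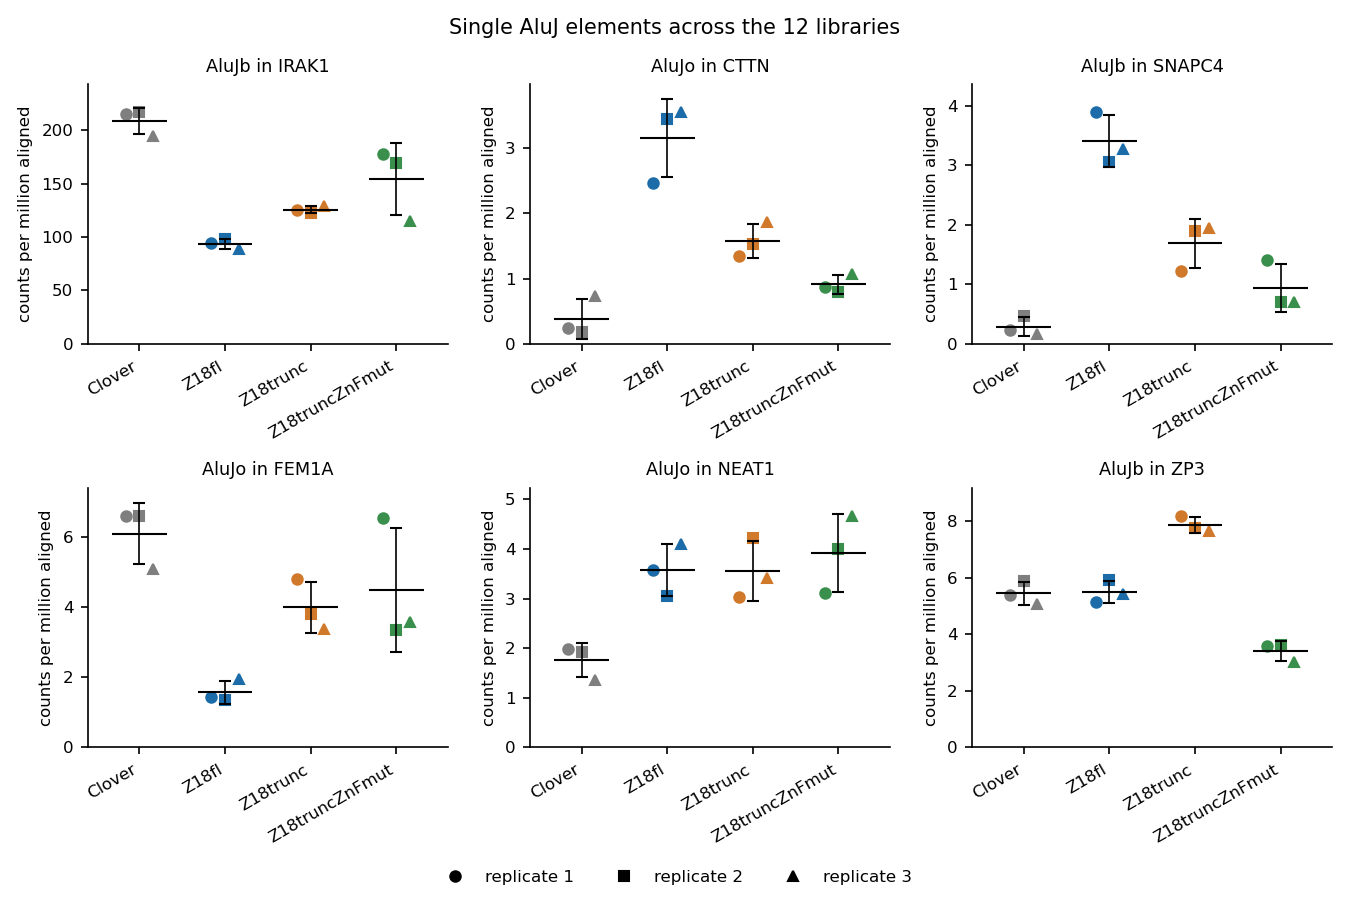
CPM of 6 named AluJ elements in the 12 libraries, by construct. Points are libraries, bars are means and error bars are SD (n = 3). IRAK1 and FEM1A, both UTR elements, are lowest in Z18fl, SNAPC4 and CTTN (intronic) are highest in Z18fl, and ZP3 separates Z18trunc from Z18truncZnFmut.

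Direct contrasts between the constructs named few elements. In Z18trunc against Z18fl, the FEM1A element was higher by 1.26 (adjusted p = 0.000944), an intronic AluJb of CTDSPL, a phosphatase gene, by 1.26 (10, 12 and 14 counts in Z18fl against 30, 28 and 33) and an AluJr4 antisense to the carboxypeptidase M gene by 1.30 (13, 15 and 32 against 63, 53 and 39). A UTR-touching AluJb in an exon of RSRP1 was lower by -1.88 (39, 30 and 43 against 11, 18 and 3, adjusted p = 0.00356). An AluJb in an exon of ANKRD13D was lower by -1.72 (30, 50 and 50 against 6, 11 and 24, adjusted p = 0.00736). An intronic AluJr of the lncRNA ENSG00000290832 was lower by -1.73 (45, 32 and 27 against 20, 2 and 11, adjusted p = 0.0193). Clover had 5, 1 and 7 counts at RSRP1 and 6, 3 and 5 at ANKRD13D, so Z18fl stood above both other groups there. Leaving out Z18fl replicate 1 or 2 or Z18trunc replicate 1 ended the calls at CTDSPL and carboxypeptidase M, leaving out Z18fl replicate 3 or Z18trunc replicate 3 also ended that at CTDSPL, Z18fl replicate 2 or Z18trunc replicate 1 that at ANKRD13D, and Z18fl replicate 1 or 2 or Z18trunc replicate 2 that at ENSG00000290832.

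In Z18truncZnFmut against Z18trunc the only AluJ locus called lower was an intronic AluJb of ZP3, an egg coat glycoprotein gene, at chr7:76439424-76439703 (plus strand). It had 195, 188 and 181 counts in Z18trunc and 87, 77 and 73 in Z18truncZnFmut, with 119, 136 and 140 in Z18fl and 90, 101 and 90 in Clover (-1.03, SE 0.18, adjusted p = 0.00773). On the TMM scale, Z18trunc against Clover was 0.18 there (edgeR adjusted p = 0.392). Z18truncZnFmut against Clover was -0.88 (edgeR adjusted p = 0.00229). AluJ loci called higher included an intronic AluJb of MDM2, the ubiquitin ligase of p53 (115, 109 and 94 against 126, 195 and 203, 0.96, adjusted p = 0.033) and an AluJb between genes at chr17:81886686-81886947 (26, 31 and 28 against 72, 53 and 51, 1.25, adjusted p = 0.0246). At MDM2 Z18fl and Z18trunc had fallen against Clover (-1.74 and -0.91), and Z18truncZnFmut against Clover was 0.032 (adjusted p = 0.952). The calls at ZP3, MDM2 and the chromosome 17 element were lost without Z18trunc replicate 1, those at MDM2 and the chromosome 17 element also without Z18trunc replicate 2 or 3, and MDM2 also without Z18truncZnFmut replicate 2 or 3. On aligned fragments MDM2 kept its sign and was not called.

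The genes named here were picked for the most AluJ loci called in 1 direction, so agreement among their loci follows largely from that choice. Loci in the same gene can share a transcript and are not independent. In Z18fl against Clover 135 genes had an AluJ locus called higher and 14 of them at least 2, and 248 genes had one called lower and 25 of them at least 2. Genes with at least 2 tested AluJ loci were not counted, so these numbers do not show how often loci of 1 gene moved alike. All 3 tested AluJ in introns of PYGB, a glycogen phosphorylase, rose (log2 fold changes 1.27 to 1.43), as did all 3 in exons of SPG7, a mitochondrial protease (1.53 to 2.06), both in CC2D1A (2.15 and 2.22), both in ATP6V1G2-DDX39B (1.23 and 1.87) and 2 of 4 in ACTN4, an actin crosslinker. All 4 in exons of PRR11 fell (-0.70 to -0.46), as did all 3 in introns of ENSG00000267059 (-1.99 to -1.58), all 3 in EXOG, a mitochondrial nuclease (-1.70 to -1.24), both in ABCF2 (-1.14 and -1.04) and both in CAPN15, a calpain (-1.84 and -1.45).

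Genes whose products act on Alu RNA or in RNA surveillance held few testable AluJ loci. Of 23 genes of Alu RNA biology, 5 had a tested locus for Z18fl against Clover, with 3 of 6 loci higher and 1 lower. Over all loci 28.3% were called higher and 24.6% lower, and 6 loci are too few to compare shares. Beside the NEAT1 element, an intronic AluJb of UPF1, the helicase of nonsense-mediated and Staufen-mediated decay, rose from 15, 15 and 11 counts to 65, 59 and 70 (1.39, adjusted p = 0.000412), whereas it was at 0.30 (adjusted p = 0.538) in Z18trunc, and Z18trunc lay below Z18fl by -1.19 (adjusted p = 0.00374). An exonic AluJb of POLR3A, the largest subunit of RNA polymerase III, had 133, 105 and 112 counts in Clover and 109, 83 and 98 in Z18fl and fell with all 3 constructs (-1.11, -0.99 and -0.69). The list had 2 of 4 loci higher and 1 lower in Z18trunc against Clover, where 22.5% of all loci were higher and 13.4% lower. In Z18truncZnFmut against Clover it had 2 of 5 higher and 1 lower (12.3% and 4.83% of all loci). In Z18trunc against Z18fl it had 0 of 8 higher and 2 lower (2.62% and 3.13%). In Z18truncZnFmut against Z18trunc 0 of 8 were called (0.368% and 0.351%). The RNA surveillance list held 25 names, of which 24 were genes in the annotation. NCBP2, a subunit of the cap-binding complex, and PABPC1, a poly(A)-binding protein, each had 1 tested locus against Clover. By edgeR 0 loci of this list were called in any of the 5 comparisons, at 2, 2, 2, 5 and 3 loci tested. The edgeR adjusted p-values at NCBP2 and PABPC1 were 0.606 and 0.28 for Z18fl against Clover. The NCBP2 locus had 14, 5 and 12 counts in Clover and 15, 11 and 20 in Z18fl, a level at which small differences were not detectable.

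AluJ loci that rose and fell in Z18fl differed little in age and more in base composition. Median divergence was 15.8% among the 173 higher and 15.9% among the 341 lower loci, and 15.8% among all tested. Median A plus T content was 47.2%, 48.7% and 48.2%, and runs of at least 10 A were present in 24.3%, 32.3% and 27.3%. The order in A plus T was not particular to AluJ. Higher and lower loci had 46.82% and 47.51% among AluS, and 44.35% and 45.08% among AluY. The B box letters were in 11% of higher and 9.38% of lower loci. Within introns, the 154 loci with the least A plus T (up to 47.1%) had a median log2 fold change of 0.52 with 48 higher and 20 lower, and the 153 with the most (from 49.3%) had -0.09 with 26 higher and 28 lower. Within exons the medians ran from -0.28 at low to -0.94 at high A plus T, where 84 of 143 were lower and 6 higher. In Z18trunc the intronic medians ran from 0.26 to -0.08 and in Z18truncZnFmut from 0.08 to -0.07. Other values did not share this order. In Z18trunc the intronic loci called higher numbered 17 at low and 19 at high A plus T, and their median A plus T content was 48.7%, against 48.6% in the loci called lower. A plus T weighted by AluJ counts was 48.67% in Clover and 48.69% in Z18fl, which overlapped, and it was higher without overlap in Z18trunc, at 48.79%, and in Z18truncZnFmut, 0.229 points above Clover, or 0.0954 without replicate 3 (exact permutation p = 0.1, adjusted 0.214, for both). These orders are descriptions on the TMM scale, without a test.

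Set against repeats outside the Alu family in introns of the same genes, AluJ loci leaned lower in Z18fl. AluS and AluY were not put through this comparison. Over all tested intronic loci the Z18fl median was 0.12 for AluJ, 0.010 for AluS and 1.40 for LINE elements, so a lean particular to AluJ is not shown. For 73 intronic AluJ loci in 47 genes whose introns also held at least 3 tested elements outside the Alu family, the AluJ median was -0.07 and that of the neighbours 0.46. The median difference was -0.38, and the AluJ lay below its neighbours in 31 genes and above in 16. The differences were -0.12 for Z18trunc (96 loci, 62 genes, 35 below) and -0.065 for Z18truncZnFmut (60 loci, 38 genes, 21 below), both against Clover. They were 0.13 for Z18trunc against Z18fl (212 loci, 135 genes, 56 below) and 0.079 for Z18truncZnFmut against Z18trunc (152 loci, 100 genes, 43 below). Loci of 1 gene share a transcript, and the 3 comparisons with Clover share its libraries, so no test is given.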

How the data were processed

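The authors trimmed reads with cutadapt 4.6 and counted repeats with SQuIRE on hg38, and deposited 1 table per library. The deposited total counts are expected counts, in which multimapping reads are divided among elements by estimation, and the deposited unique counts are whole numbers of uniquely mapping reads. The score deposited beside them is the percent of aligned reads that was assigned to an element, and divergence from the consensus was deposited as the milliDiv score. The FPKM column was not used.

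Only elements of 6 repeat classes on the transcript strand of the element entered. Expected counts were rounded and fitted with edgeR 4.0.16 in R 4.3.3 (TMM, filterByExpr with a minimum count of 10 and a minimum total of 15, quasi-likelihood test) over all elements, with the 6 libraries of each comparison, and p-values were adjusted by Benjamini-Hochberg over all loci tested (called under 0.05). Subfamily sums were fitted likewise. For 9 measures per library, two-sided exact permutation tests were made in 5 comparisons. Gene context came from GENCODE 44, and an element was exonic where at least 50% of it lay in exons on its strand. Exons of annotated transcripts of every type were used. The UTR label needed only some overlap with an annotated UTR on either strand and was not matched to the named gene. Python 3.11.15 with pandas 2.3.3, numpy 2.4.6, scipy 1.17.1 and pysam 0.24.0 was used, and DESeq2 1.42.0 as an alternative. Aligned fragments per library, 16683132 to 25686948, came from the tables, and counts without molecular identifiers are not independent molecules.

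The members and lists were chosen with earlier results of these data known. Loci were named by 1 rule: the 6 largest rises and the 6 largest falls against Clover (3 and 3 between constructs, fewer where fewer qualified) among called loci with groups that did not overlap relative to library size and a mean of 30 counts or more in whichever group was higher, together with the 3 AluJ loci with the most counts. Host genes were the up to 5 with the most AluJ loci called in each direction in Z18fl against Clover. Alternatives were library sizes from aligned fragments, DESeq2, no filter, either strand, unique reads, all 12 libraries in 1 fit, thinning, a replicate block, unadjusted p, all repeat classes in the denominator and each library left out. Leaving out the AluJ element with the most counts, and the spread over elements in single libraries, were chosen after seeing the data. Tested on simulated data with 200 changed loci, the fit for Z18fl against Clover on 10782 loci recovered 31% of 2-fold and 90% of 4-fold changes, with 6.92% of its calls false, and that for Z18trunc against Clover on 11283 loci recovered 18% and 75%, with 3.125% false. For Z18truncZnFmut against Clover (9140 loci), Z18trunc against Z18fl (17332) and Z18truncZnFmut against Z18trunc (15277), 22%, 21% and 20% of 2-fold changes were recovered. The main fit for Z18fl against Clover called 3424 loci higher and 2981 lower of 12098. Performance with that many changed loci was not tested. Some loci that the rule names, and the sequences of the elements, are not reported here.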

Additional observations from a re-analysis of the deposited data

Results flagged for a closer look

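The following differences were tested directly between constructs and passed the adjusted threshold, though most of the calls were lost under some alternative. In Z18trunc against Z18fl the log2 fold change was 1.30 at the AluJr4 antisense to the carboxypeptidase M gene, 1.26 at CTDSPL and 1.26 at FEM1A, and -1.88 at RSRP1, -1.73 at ENSG00000290832 and -1.72 at ANKRD13D. In Z18truncZnFmut against Z18trunc it was 1.25 at the AluJb between genes on chromosome 17, 0.96 at MDM2 and -1.03 at ZP3. Of these, the calls at FEM1A and RSRP1 were kept under every alternative run. Of 14 alternatives, MDM2 was called under 4, CTDSPL under 8, the chromosome 17 element under 9, carboxypeptidase M under 11, ANKRD13D under 12 and ZP3 under 13, and ENSG00000290832 under 9 of 13.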

How the results depend on the processing

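With 3 libraries a group, small changes at shallow loci were not detectable, and the scaling decides the direction of AluJ as a whole. Counts of AluJ loci are given as higher and then lower, and the number tested changed with the setting. Calls over all loci and all subfamilies also changed, and those on aligned fragments stand with the comparisons above. For Z18fl against Clover 1060 were tested in the main fit, 1622 on either strand, 2244 with all 12 libraries and 672 after thinning. With no filter 70058 were tested, and 73616 and 94522 for Z18trunc and Z18truncZnFmut against Clover. For Z18fl against Clover (173 and 341, median -0.30), aligned fragments gave 218 lower and a median of 0.065, no filter 269 and 137 with a median of 1.15, either strand 272 higher, all 12 libraries 275 higher and thinning 111 higher. Called AluJ subfamilies turned from 3 lower to 3 higher on aligned fragments, with AluJb, AluJo, AluJr and AluJr4 at 0.15, 0.24, 0.30 and 0.42, and 0 were lower with all 12 libraries. For Z18trunc against Clover (85 and 198), aligned fragments gave 142 and 63 with a median of 0.047, DESeq2 55 and 112, no filter 167 and 12 with a median of 1.54, thinning 44 and 120, unique reads 120 lower, all 12 libraries 146 higher and unadjusted p 128 higher. Aligned fragments called 4 subfamilies higher, with AluJb, AluJo and AluJr at 0.28, 0.33 and 0.37, and either strand put AluJr4 at -0.016. For Z18truncZnFmut against Clover (8 and 56), aligned fragments gave 21 and 9, no filter 15 and 1 with a median of 1.71, all 12 libraries 54 and 149, unadjusted p 35 and 137, DESeq2 4 higher, thinning 4 higher, the replicate block 5 higher and unique reads 36 lower, and aligned fragments put the subfamilies at 0.42, 0.43, 0.49 and 0.68. For Z18trunc against Z18fl (33 and 45), DESeq2 gave 21 and 17, no filter 5 and 15, all 12 libraries 10 and 13 with a median of 0.032, unadjusted p 172 and 208, aligned fragments 26 lower with a median of 0.056, and the replicate block 17 higher. For Z18truncZnFmut against Z18trunc (3 and 1), aligned fragments gave 1 and 2 with a median of -0.090 and subfamilies at 0.14, 0.11, 0.11 and 0.14, no filter 1 and 3, unadjusted p 100 and 56, DESeq2 5 higher, and unique reads and all 12 libraries 2 lower each. The cause was not tested.

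Leaving out 1 library at a time, loci called higher ran from 126 to 275 for Z18fl against Clover, 44 to 134 for Z18trunc, 5 to 14 for Z18truncZnFmut, 7 to 29 for Z18trunc against Z18fl and 0 to 3 for Z18truncZnFmut against Z18trunc. Loci called lower ran from 95 to 200 for Z18trunc, 25 to 39 for Z18truncZnFmut, 14 to 57 for Z18trunc against Z18fl and 0 to 3 for Z18truncZnFmut against Z18trunc. The number of loci tested changed with the library left out, so these counts do not share a denominator. For Z18truncZnFmut against Clover, AluJr ran from -0.48 to 0.033, AluJr4 from -0.27 to 0.13, the unique percent from -1.73 to 1.40 and the element strand percent from -4.47 to 0.130. For Z18trunc against Z18fl, the locus median ran from -0.091 to 0.027, AluJr from -0.011 to 0.071, the AluJ percent of element counts from -0.344 to 0.0750, the exon percent from -0.0338 to 1.33 and the strand percent from -0.271 to 0.589. For Z18truncZnFmut against Z18trunc, AluJb ran from -0.23 to 0.19, AluJo from -0.26 to 0.14, AluJr from -0.26 to 0.14, AluJr4 from -0.24 to 0.075, the AluJ percent of element counts from -0.601 to 0.886, of Alu counts from -0.189 to 0.256, the exon percent from -3.32 to 1.56, A plus T from -0.0242 to 0.199, divergence from -0.0249 to 0.0789 and the strand percent from -3.78 to 0.818.

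Of 44 named calls 24 were kept under every alternative run, 15 were lost without some library and 0 reversed. Libraries with the same number did not deviate together (r from -0.070 to 0.022), so the numbers were not taken to pair them. With the replicate block 2 AluJ subfamilies were lower in Z18fl against Clover instead of 3.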
